A study of Capra hircus with 3 samples.

Results

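The members examined here are the D-type and E-type cyclins CCND1, CCND2, CCND3, CCNE1 and CCNE2, their partner kinases CDK2, CDK4 and CDK6, and the transcription factor E2F1. They were taken by gene symbol, which found 8 of the 9 members among the 27271 features counted, of which 16616 carry a symbol. CCND2 was not analysed here, because no feature bears that symbol, so the D-type cyclins below are CCND1 and CCND3 and the part that CCND2 may have in any class is unknown.

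The study profiled dissociated testes of goat (Capra hircus) fetuses, labelled male, by droplet single-cell RNA sequencing at 3 embryonic stages, which the study places in the quiescent phase of the germ cells. The testes were digested with enzymes and made into 3' libraries that carry unique molecular identifiers (UMIs), with 1 library for each stage, called E85, E105 and E125 after the embryonic day. Every difference between stages is therefore a difference between 2 libraries, with no replicate and no test. Intervals given below are exact 95% intervals that cover counting error only.

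D-type cyclins bind CDK4 and CDK6 when growth signals arrive, and the complexes phosphorylate the retinoblastoma protein, which releases E2F factors. E2F1 and its relatives then drive genes of DNA synthesis, among them the E-type cyclins, which activate CDK2 and carry the cell into S phase. D-type cyclins respond to signals and differ between cell types, whereas E-type cyclins peak at the start of S phase. CDK inhibitors such as CDKN1B (p27) and CDKN1C (p57) hold the kinases in check, and in male fetal germ cells of the mouse the entry into quiescence goes with such inhibitors and with active retinoblastoma protein.

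After filters on UMIs, genes and mitochondrial share, and after called doublets were removed, 6133 cells of E85, 6909 of E105 and 7318 of E125 remained, and the deposited matrices held 45339231, 40741902 and 49692252 UMIs. Of the cells that passed the filters, E85 and E105 shared 10 barcodes, E85 and E125 shared 10, and E105 and E125 shared 6. The library labelled E125 went against its tissue label. AMH, the Sertoli cell hormone, stood at 1401 CPM (UMIs of a gene per 1000000 UMIs) in E85, 3805 in E105 and 31.6 in E125, and the Leydig cell hormone INSL3 at 11.3, 34.6 and 0.665. The egg coat gene ZP3 stood at 1.21, 2.57 and 2110 CPM in the same order, and the oocyte factor FIGLA at 1.11, 0.294 and 792. No cell of E125 fell in a cluster named Sertoli-like or germ-like, and oocyte-like and pregranulosa-like clusters appeared in their place. Markers of the germ line were not absent from E125. DDX4 stood at 48.7, 21.8 and 26.0 CPM in E85, E105 and E125, and the germ cell markers summed to 708 CPM in oocyte-like cells. The results below therefore rest on E85 and E105, and E125 is given as the library labelled E125.

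Cells were clustered without the members and without genes of the cell cycle, so the members did not place a cell, and each cluster was named only by markers of its type. Levels are CPM of the class, from UMIs summed over its cells. A 3' UMI counts a transcript once, so these levels are not divided by length, but how well the end of each gene is annotated differs between genes, and the comparisons below are mainly of 1 gene between classes. The germ-like class had 240 cells in E85 and 96 in E105, the Sertoli-like class 2495 and 2034, and the stromal-like class 2293, 3509 and 1961 in E85, E105 and E125. In all, 29 sums of a class in a library held at least 50 cells.

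CCND1 was the D-type cyclin found in nearly every class, and Sertoli-like cells stood apart by its near absence. Over the 29 sums its level ran between 1.32 and 500 CPM, with a median of 173 CPM and 10262 UMIs in all. In Sertoli-like cells it reached 1.32 CPM (0.869 to 1.92, 27 UMIs) in E105 and 1.44 CPM (1.02 to 1.98, 38 UMIs) in E85, the lowest of the 29 sums. Germ-like cells, which lie beside the Sertoli cells in the testis cords, had 204 CPM (184 to 226, 381 UMIs) in E105 and 151 CPM (140 to 163, 671 UMIs) in E85. The level in germ-like cells was thus 155 times that in Sertoli-like cells in E105 (104.7 to 238) and 104.9 times in E85 (75.6 to 150). Stromal-like cells had 187, 175 and 147 CPM in E85, E105 and E125, which was 133 times the Sertoli-like level in E105 (90.9 to 202) and 130 times in E85 (93.6 to 184).

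The other classes were graded in CCND1. Endothelial-like cells had 305, 173 and 334 CPM in E85, E105 and E125, mural-like cells 317, 286 and 421 CPM, and macrophage-like cells 250, 324 and 472 CPM. A cluster led by CLEC9A and DHRS9, left unnamed, had 465 CPM in E85 and 368 CPM in E105, and Schwann-like cells of the library labelled E125 had the highest level of all, 500 CPM (416 to 596). The order among these high sums is not resolved, since the intervals of Schwann-like cells in E125, macrophage-like cells in E125 (394 to 561) and CLEC9A-led cells in E85 (416 to 519) overlap. Between these and the lowest levels lay a cluster led by HEPACAM and DCDC2, with 100.4 CPM in E85, and the large unnamed cluster led by SULF1 and COL12A1 in E125, with 60.6 CPM. At the low end, lymphoid-like cells had 9.48, 4.48 and 8.58 CPM in E85, E105 and E125, and B lineage-like cells 8.20 CPM in E105 and 12.5 CPM in E85, on 4 to 13 UMIs each. In the library labelled E125, oocyte-like cells had 10.9 CPM (8.95 to 13.1) and pregranulosa-like cells 44.2 CPM (39.7 to 49.1), so that here the oocyte-like level was 0.246 times that of the supporting cells (0.197 to 0.305), the opposite direction to germ-like over Sertoli-like cells.

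**Figure D1:**
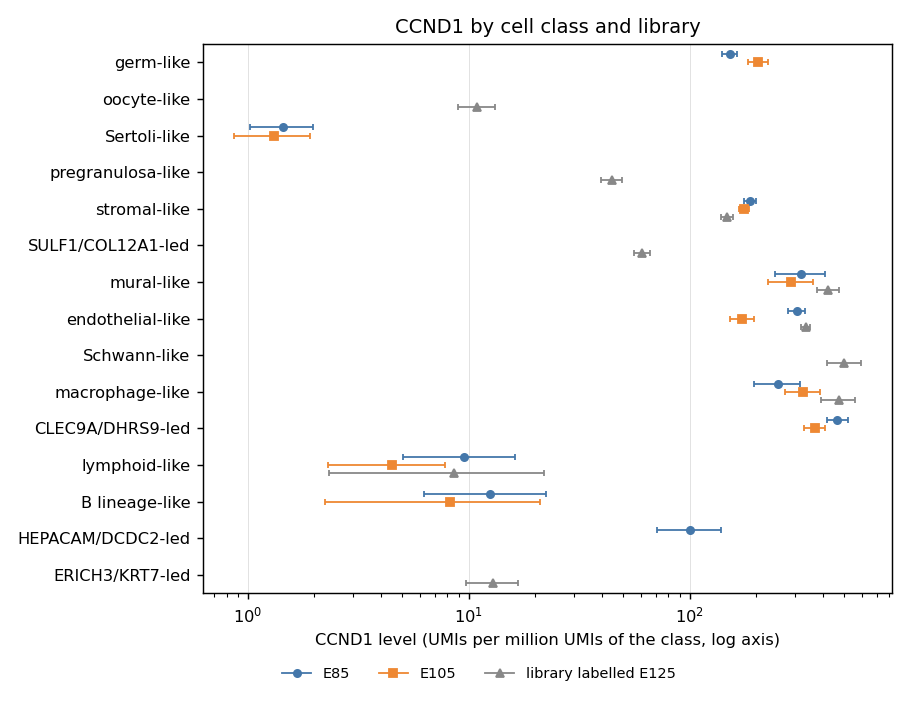
CCND1 level in each class (rows) and library (colours), in CPM on a log axis, with exact 95% Poisson intervals, for sums of at least 50 cells. Sertoli-like cells lie near 1 CPM, lymphoid-like, B lineage-like, oocyte-like and ERICH3/KRT7-led cells near 10 CPM, and germ-like, stromal-like, vascular and myeloid sums above 100 CPM.

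The same contrast held in the share of single cells with a CCND1 UMI when each cell was thinned to 2000 UMIs. At that depth 27.2% of 92 germ-like cells had a UMI in E105 and 23.8% of 227 in E85, against 0.100% of 1992 Sertoli-like cells in E105 and 0.284% of 2465 in E85. Unthinned, the shares were 80.2% of 96 and 77.1% of 240 germ-like cells, against 1.08% and 1.36% of Sertoli-like cells, with median depths of 18930 and 18466.5 UMIs in germ-like cells and 9831 and 10219 in Sertoli-like cells. Free RNA in droplets was not measured here, so whether the few Sertoli-like UMIs come from those cells was not tested. Germ-like cells also carried markers of their neighbours. Sertoli markers summed to 1448 CPM in germ-like cells of E105 and 890 CPM in those of E85, against 10708 and 4637 CPM in Sertoli-like cells. Stromal markers summed to 567 and 511 CPM in germ-like cells, against 14160 and 11823 CPM in stromal-like cells, while CCND1 in germ-like cells was at 204 and 151 CPM against 175 and 187 CPM there. The part of carried-over RNA in the germ-like CCND1 level was not tested further.

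CCND3, the D-type cyclin best known in blood cells, was rare, with 123 UMIs over the 29 sums and a median of 1.20 CPM. Its highest levels were in B lineage-like cells, with 14.4 CPM (5.77 to 29.6, 7 UMIs) in E105 and 12.5 CPM (6.24 to 22.4, 11 UMIs) in E85. Against lymphoid-like cells, whose markers are those of T and natural killer cells, this was 7.70 times higher in E105 (2.10 to 30.8), while in E85 the lymphoid-like sum held 1 UMI and the ratio was 17.2 (2.49 to 738). Stromal-like cells had 2.49 CPM in E105 and 4.79 CPM in E85, on 21 and 24 UMIs, and Sertoli-like cells held 1 and 4 UMIs in those libraries.

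As shares of the CCND1 and CCND3 UMIs of a class, CCND1 made up 97.5%, 98.6% and 99.2% in stromal-like cells of E85, E105 and E125, and 99.5% and 99.7% in germ-like cells of E105 and E85. In Sertoli-like cells it was 96.4% of 28 UMIs in E105 and 90.5% of 42 UMIs in E85. B lineage-like cells of E85 were the exception, with 11 of 22 UMIs from CCND1 (28.2% to 71.8%), but that share was 74.3% to 88.2% under 4 other ways of drawing the class, so it depends on which cells are counted as B lineage-like.

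CCNE1 had its highest CPM in the germ-like class, though that rank is not resolved. It had 18.8 CPM (13.1 to 26.1, 35 UMIs) in E105 and 15.3 CPM (11.9 to 19.4, 68 UMIs) in E85, which was 8.17 times the level of Sertoli-like cells in E105 (5.12 to 12.9) and 8.42 times in E85 (5.73 to 12.4). CCNE2 followed the same direction, with 8.04 CPM in E105 and 4.51 CPM in E85, or 8.23 times (3.92 to 16.9) and 5.94 times (3.03 to 11.6) the Sertoli-like level. B lineage-like cells came next for CCNE1, with 10.3 CPM in E105 and 11.4 CPM in E85, on 5 and 10 UMIs. In the library labelled E125, oocyte-like cells had 7.37 CPM of CCNE1 (5.81 to 9.23, 76 UMIs) against 3.40 CPM (2.24 to 4.95, 27 UMIs) in pregranulosa-like cells, a ratio of 2.17 (1.38 to 3.50). So in all 3 libraries CCNE1 was higher in the germ line class than in the supporting cells.

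The balance of the E-type cyclins differed between classes. CCNE1 made up 70.0% (55.4 to 82.1) of the E-type cyclin UMIs of germ-like cells in E105 and 77.3% (67.1 to 85.5) in E85, and 70.1% and 70.6% in Sertoli-like cells. In stromal-like cells it made up 30.6% (19.6 to 43.7) in E105 and 35.7% (18.6 to 55.9) in E85, so that CCNE2 had more UMIs than CCNE1 there. In E85, on 10 UMIs of CCNE1 and 18 of CCNE2, an even split lies within the interval. In the library labelled E125 the stromal-like share was 61.9% (48.8 to 73.9), the oocyte-like share 84.4% (75.3 to 91.2) and the pregranulosa-like share 27 of 30 UMIs (73.5% to 97.9%). Most stromal-like cells of E125, 1637 of 1961, fell in a cluster led by CHODL that held no cell of E85 or E105. The rest lay in clusters shared with those libraries, 233 in one led by CKAP2 and 91 in one led by MX2.

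CDK4, the main catalytic partner of the D-type cyclins, was detected in all 29 sums, with levels of 4.00 to 25.5 CPM. Stromal-like cells of E105 had the highest level, 25.5 CPM (22.2 to 29.1, 215 UMIs), and those of E85 had 19.7 CPM (16.05 to 24.04, 99 UMIs). The first rank is not resolved, since B lineage-like cells of E105 had 24.6 CPM (12.7 to 43.0). Sertoli-like cells kept 12.5 CPM (11.01 to 14.1, 256 UMIs) in E105 and 9.94 CPM (8.77 to 11.2, 262 UMIs) in E85. Germ-like cells had 15.5 CPM in E105 and 14.4 CPM in E85, which was 1.24 times the Sertoli-like level in E105 (0.816 to 1.83) and 1.45 times in E85 (1.09 to 1.91). In CPM, the gap between germ-like and Sertoli-like cells that was above 100-fold for CCND1 was thus below 2-fold for its kinase. With the TMM scaling given below, the CCND1 gap would be under 100-fold, and CDK4 would be lower in germ-like than in Sertoli-like cells.

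CDK6, the other D-cyclin kinase, had its highest level in germ-like cells of E105. That rank is not resolved, since mural-like cells of E125 had 13.9 CPM (6.68 to 25.6). Germ-like cells had 15.0 CPM (9.97 to 21.7, 28 UMIs) in E105 and 8.79 CPM (6.25 to 12.0, 39 UMIs) in E85. Sertoli-like cells had 5.57 and 4.17 CPM in these libraries, and the germ-like level was 2.70 times that in E105 (1.72 to 4.10) and 2.11 times in E85 (1.42 to 3.06). In macrophage-like cells CDK6 had 0 UMIs in each of the 3 libraries, where a limit of 3 counts allows up to 10.4, 7.72 and 11.1 CPM in E85, E105 and E125. CDK2, the partner of the E-type cyclins, was low throughout, with a median of 2.93 CPM, and its highest level, 14.4 CPM in B lineage-like cells of E105, rests on 7 UMIs. In germ-like cells CDK2 had 2.14 CPM in E105 and 1.58 CPM in E85, close to the 2.49 and 1.52 CPM of Sertoli-like cells, although the E-type cyclins differed between them. All germ-like over Sertoli-like ratios here are of CPM without TMM scaling, which rescales each sum by a trimmed mean of ratios. TMM factors were 1.74 and 1.42 in germ-like cells of E105 and E85, and 0.698 and 0.639 in Sertoli-like cells. With them each such ratio would be lower, and CDK4 and CDK2 would be lower in germ-like than in Sertoli-like cells. The CDK6 difference thus also depends on the scaling. B lineage-like cells had factors of 1.17 and 1.02 in E105 and E85, so the lead of germ-like cells over them in CCNE1 depends on it too.

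**Figure D2:**
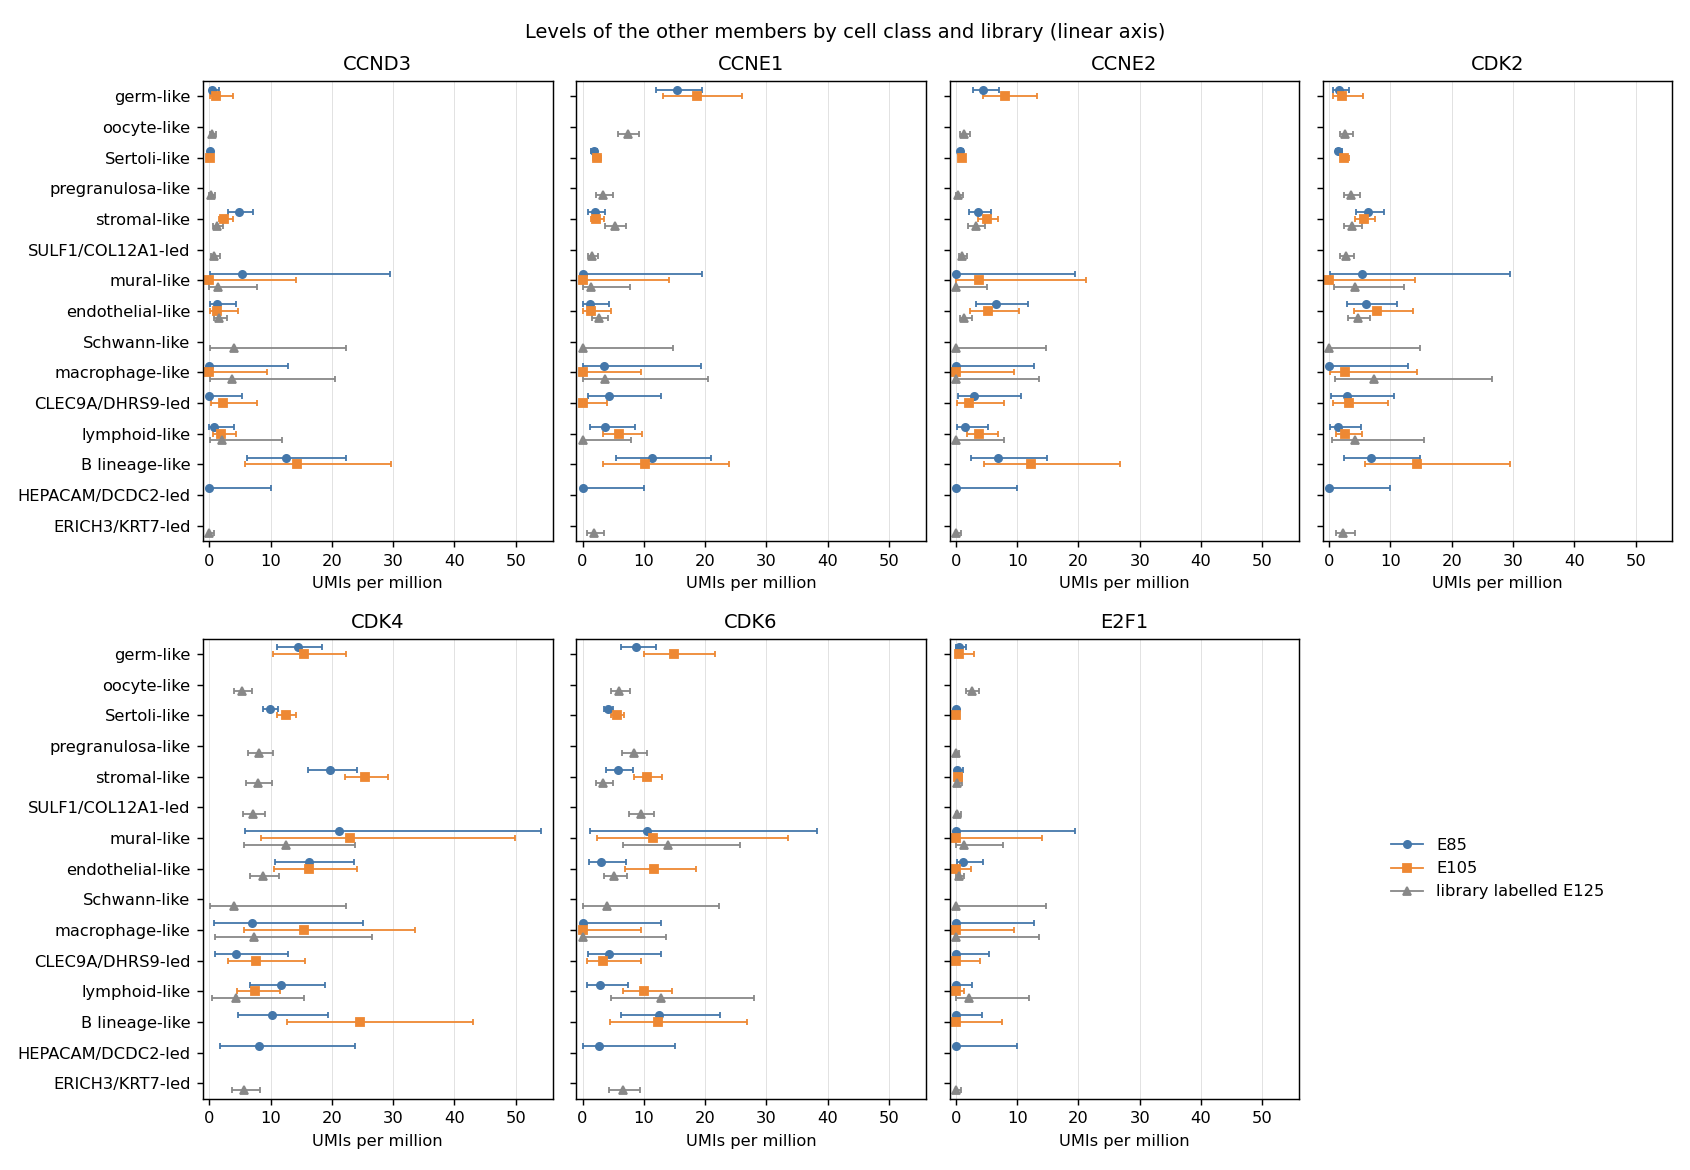
Levels of the other 7 members in each class (rows) and library (colours), in CPM on linear axes, with exact 95% Poisson intervals, for sums of at least 50 cells. Germ-like cells are highest for CCNE1, B lineage-like cells for CCND3, and stromal-like cells of E105 for CDK4, while the long intervals belong to classes with few UMIs. Intervals of other classes overlap those of the highest, so these first ranks are not resolved.

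As a share of the CDK2, CDK4 and CDK6 UMIs, CDK4 led in Sertoli-like cells, with 60.8% (55.96 to 65.5) in E105 and 63.6% (58.7 to 68.2) in E85, and in stromal-like cells, with 61.1% (55.8 to 66.2) and 61.9% (53.9 to 69.4). Germ-like cells were more evenly divided in E105, with 47.5% CDK4 and 45.9% CDK6 of 61 UMIs, against 58.2% and 35.5% of 110 UMIs in E85, and the intervals of the 2 libraries overlap. In the library labelled E125, CDK6 was level with or above CDK4 in several classes. It made up 48.9% (41.4 to 56.4) in the large unnamed cluster led by SULF1 and COL12A1, where CDK4 made up 36.8% (29.8 to 44.3). In oocyte-like cells the shares were 43.1% CDK6 and 38.2% CDK4 of 144 UMIs, and in pregranulosa-like cells 41.5% and 40.9% of 159 UMIs. Lymphoid-like cells had 27 of 54 UMIs from CDK6 in E105 and 4 of 22 in E85.

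**Figure D3:**
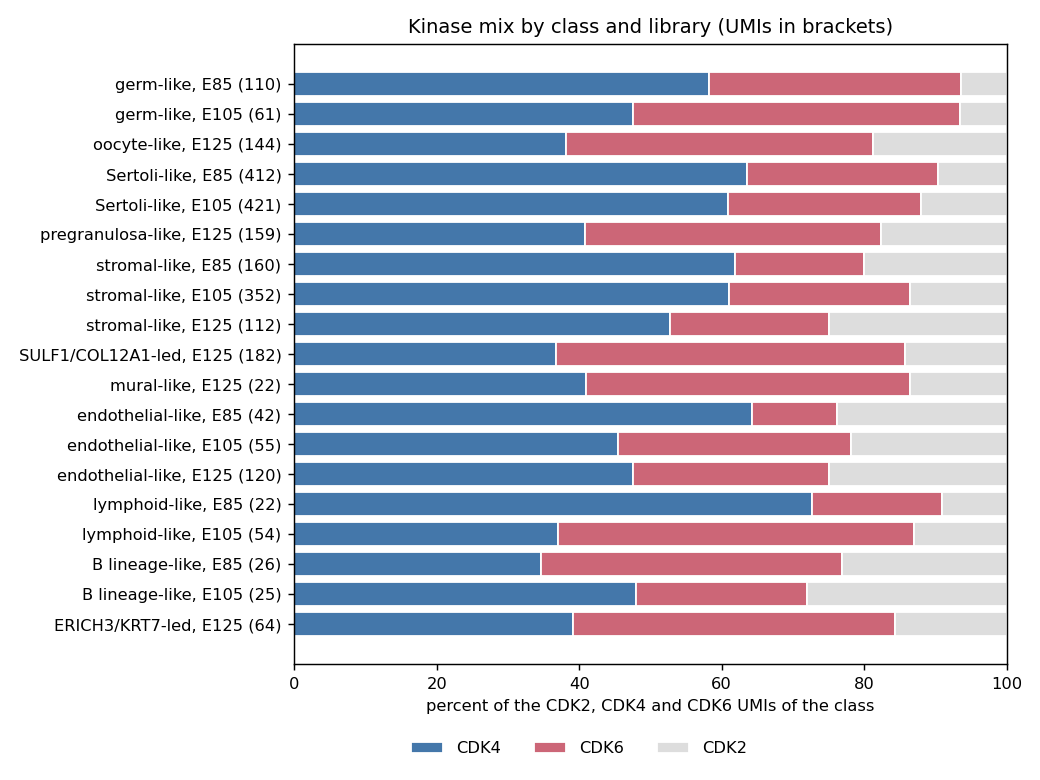
CDK4, CDK6 and CDK2 as percent of their summed UMIs, for each class and library with at least 20 such UMIs (number in brackets). CDK4 takes about 60% in Sertoli-like and stromal-like cells of E85 and E105, and CDK6 passes it in 5 classes of the library labelled E125, in 2 of them by a single UMI.

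E2F1 was at the limit of detection, with 48 UMIs over the 29 sums. Of these, 27 lay in oocyte-like cells of the library labelled E125, at 2.62 CPM (1.73 to 3.81), against 0 UMIs in pregranulosa-like cells, where 3 counts would be 0.378 CPM. Oocyte-like cells were also the deepest class, with a median of 73652 UMIs per cell against 8097.5 in pregranulosa-like cells. In E105 and E85, germ-like cells held 1 and 2 E2F1 UMIs and Sertoli-like cells 2 and 1, so no difference of E2F1 was detectable between them.

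Set against all other cells of the same library, germ-like cells had 5 of the 6 members with enough counts at least 1.5-fold higher or lower in E105, and 5 of 6 in E85, where 74.4% and 73.8% of all features tested were. A feature was tested where the compared sums held at least 50 UMIs together. CCND1, CCNE1, CCNE2 and CDK6 were the higher members in both libraries, between 1.95-fold for CDK6 in E85 and 7.49-fold for CCNE1 in E105, and CDK2 was lower, on 4 and 7 UMIs. The median over all features was itself 0.50 and 0.54 on the log2 scale in germ-like cells of E105 and E85. TMM factors were 1.74 and 1.42 there, against 0.868 and 0.760 in the other cells, so with TMM scaling these ratios would be lower. In Sertoli-like cells 6 of 6 members were lower in each library, against 57.0% of features in E105 and 60.4% in E85. The median over all features was itself -0.74 and -0.85 on the log2 scale there, and with TMM scaling, which rescales each sum by a trimmed mean of ratios, 2 of 6 members in E105 and 3 of 6 in E85 were past the fold. CCND1, at 0.00832 and 0.00827 times the level of the other cells, was far from that shift. Oocyte-like cells of the library labelled E125 had 2 of 6 members past the fold, CCNE1 higher and CCND1 lower, against 77.4% of all features. Since most features differ this much between these classes, the counts are no result about the members.

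Between E105 and E85, the germ-like class showed small differences. CCND1 had 204 CPM in E105 against 151 CPM in E85, a ratio of 1.35 (1.19 to 1.53). CCNE1 had a ratio of 1.22 (0.789 to 1.86) and CDK4 of 1.08 (0.669 to 1.69), both within counting error of 1. CDK6 was 1.71 times higher (1.01 to 2.84), the 1 of 4 measured members past 1.5-fold, against 18.0% of all features. The median log2 ratio of all features was 0.17, and with TMM scaling, which moved it to -0.12, CDK6 was at 1.39 and CCND1 at 1.10, 0 of 4 members passed the fold, and CDK4 was at 0.878, as it was at 0.894 when cells were gated on marker UMIs. As a mean over cells with equal weight CDK6 was at 1.19.

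In Sertoli-like cells, 1 of 5 measured members passed 1.5-fold, against 14.6% of all features. This was CDK2, at 2.49 CPM in E105 against 1.52 CPM in E85, a ratio of 1.64 (1.06 to 2.55). CDK4 had a ratio of 1.26 (1.05 to 1.4995), CDK6 of 1.33 (1.02 to 1.75) and CCND1 of 0.914 (0.537 to 1.54). In stromal-like cells CDK6 was the 1 of 5 past the fold, against 14.7% of features, with 10.5 CPM in E105 against 5.78 CPM in E85, a ratio of 1.82 (1.19 to 2.88). CDK4 had a ratio of 1.29 there (1.01 to 1.65), which was 2.37 among cells with at least 3000 UMIs, and CCND1 a ratio of 0.938 (0.864 to 1.02), which was 1.10 among those cells. The stromal-like cells of E105 lay more in the clusters led by TAC1 and by CCL11, with 1164 and 942 cells against 23 and 269 in E85. Within the cluster led by DLK1, common to both, CDK6 had 9.02 CPM in E105 and 4.48 CPM in E85, on 15 and 10 UMIs, and CCND1 had 219 and 223 CPM.

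Among classes with at least 50 CCND1 UMIs over both libraries, endothelial-like cells showed the largest difference of CCND1 between E105 and E85. It was at 173 CPM in E105 against 305 CPM in E85, a ratio of 0.567 (0.487 to 0.659), and was the 1 of 2 measured members past the fold, against 12.6% of features. Within the cluster led by PNOC, which held 233 of 256 cells in E105 and 273 of 296 in E85, the levels were 190 and 313 CPM. Over all settings tried the ratio lay between 0.496 and 0.602. Mitosis genes in that cluster were at 319 CPM in E105 against 146 CPM in E85, and stromal markers in the class at 655 against 408 CPM, and their part in the difference was not tested. CDK6 in endothelial-like cells had 18 UMIs in E105 and 5 in E85, a ratio of 3.899 (1.40 to 13.4), on fewer UMIs than the minimum used for the counts.

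In lymphoid-like cells CDK6 had 27 UMIs in E105 and 4 in E85, a ratio of 3.45 (1.20 to 13.6), again on fewer UMIs than that minimum. Of 8 classes with CDK6 UMIs, 6 had a ratio above 1. The 2 below 1 were CLEC9A-led cells, at 3.27 against 4.39 CPM, and B lineage-like cells, at 12.3 against 12.5 CPM. CCND1 had ratios below 1 in 7 of 9 classes and above 1 in germ-like and macrophage-like cells, but in stromal-like cells it was above 1 under 3 other settings, and in Sertoli-like cells it was 1.32 when no doublets were removed and 1.30 when cells were gated on marker UMIs. None of the other classes with a measured member had one past the fold, with 0 of 1 in macrophage-like cells (CCND1 at 1.30, 0.962 to 1.76, against 18.9% of features), 0 of 1 in mural-like cells (0.903, 0.634 to 1.29, against 16.2%) and 0 of 1 in CLEC9A-led cells (0.791, 0.676 to 0.924, against 16.3%). All classes of a library share its depth and free RNA, so these are not separate observations of a stage.

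**Figure D4:**
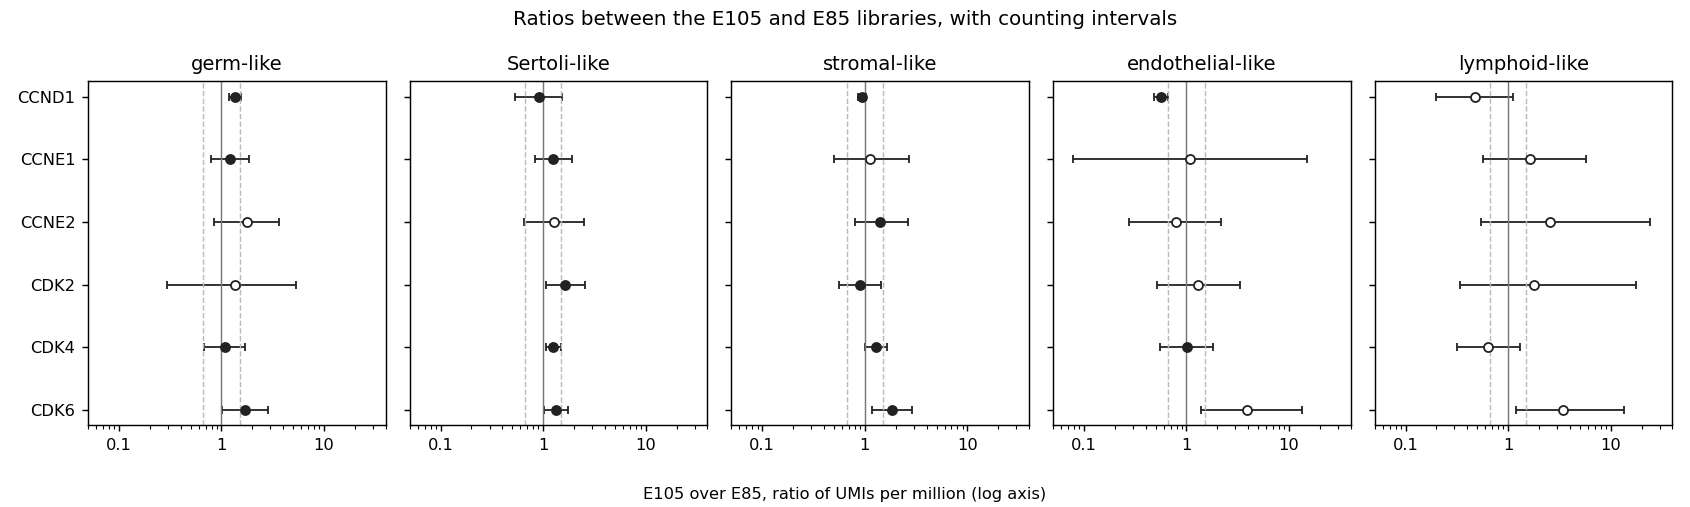
Ratio of E105 over E85 for 6 members in 5 classes, on log axes, with exact 95% intervals from the split of the UMIs. Filled points have at least 50 UMIs over both libraries, open points fewer, and dashed lines mark 1.5-fold higher and lower. CCND1 lies below 1 in endothelial-like cells and above 1 in germ-like cells, and CDK6 lies above 1 in all 5 classes shown. These 5 are the classes whose CDK6 interval lay above 1, of 8 classes with CDK6 UMIs, and in 2 classes not shown the ratio was below 1.

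The library labelled E125 was set against E85 only in classes found in both, and this comparison shares the E85 library with the one above. In stromal-like cells 3 of 4 measured members were lower by at least 1.5-fold, CDK4 at 7.90 CPM in E125 against 19.7 CPM in E85 (0.4002, 0.285 to 0.558), CDK2 at 0.588 (0.341 to 1.01) and CDK6 at 0.579 (0.325 to 1.02). Of all features, 26.1% were lower by as much in that comparison. The stromal-like class of E125 leaves out the unnamed cluster led by SULF1 and COL12A1. Stromal markers summed to 5725 CPM in that cluster, against 11710.5 CPM in stromal-like cells of E125. It had 7.18 CPM of CDK4, 2.79 of CDK2 and 9.54 of CDK6, against 19.7, 6.38 and 5.78 CPM in stromal-like cells of E85. The lower CDK6 level thus depends on which cells are counted as stromal-like. CDK4 was also lower in endothelial-like cells, at 0.544 (0.338 to 0.894), 1 of 2 members against 14.3% of features lower, and CCND1 was higher in macrophage-like cells, at 1.88 (1.40 to 2.55), 1 of 1 against 23.8% of features higher. Mural-like CCND1 had a ratio of 1.33 (1.00 to 1.78), 0 of 1 past the fold against 47.6% of features. Stage and tissue cannot be told apart in this comparison, and other clusters hold most of the stromal-like and endothelial-like cells of E125.

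To set the members against division itself, cells of a class were thinned to 1 depth and divided by 19 mitosis genes that include no member, with at least 3 UMIs marking a cell. In stromal-like cells CCND1 was lower in the cells with mitosis UMIs. It had 69.6 CPM in 153 such cells of E105 against 184 CPM in the other 3095 (0.378, 0.272 to 0.511), 59.3 CPM in 134 cells of E85 against 203 CPM in 1906 (0.293, 0.190 to 0.432), and 32.8 CPM in 222 cells of E125 against 171 CPM in 1645 (0.191, 0.137 to 0.259). At least 1.5-fold lower were 22.8%, 21.2% and 18.1% of all features in the same order. The E-type cyclins went the other way, and CCNE1 and CCNE2 together were 7.03 times higher in E105 (3.96 to 12.2), 7.30 times in E85 (3.15 to 16.4) and 3.76 times in E125 (2.18 to 6.46), where 15.8%, 17.2% and 17.6% of features were at least 1.5-fold higher. The E85 ratio rests on 12 and 16 UMIs, fewer than the minimum those features had to meet, and no member that met it was higher there. In E105 and E125 neither E-type cyclin met it alone, only both summed.

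The stromal cells with mitosis UMIs also had less of their own class markers, with stromal markers at 9598 against 14497 CPM in E105, 8601 against 12014 CPM in E85 and 6029 against 12883 CPM in E125, and the part of this in the CCND1 difference was not tested. Without the cluster whose leading genes are mitosis genes, CCND1 in cells with mitosis UMIs was at 0.308 times the rest in E105 and 0.373 times in E85, and the E-type cyclins at 10.9 and 10.1 times. E125, which holds 233 of that cluster's 352 cells, could not be fitted this way. CDK4 in stromal-like cells with mitosis UMIs was higher in E105, at 50.2 against 24.1 CPM (2.08, 1.37 to 3.06), and in E125, at 12.95 against 6.79 CPM (1.91, 1.02 to 3.43), whereas in E85 it had 13.7 against 20.2 CPM (0.679, 0.242 to 1.54), on 6 UMIs. CDK6 had 3.24 against 11.1 CPM in E105 (0.292, 0.0348 to 1.09), on 2 UMIs.

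In Sertoli-like cells CCND1 was under 4 CPM in either part. In those with mitosis UMIs CCND1 had 3.23 CPM in E105 and 2.63 CPM in E85, on 8 and 7 UMIs, against 0.995 and 1.16 CPM in the rest, ratios of 3.25 (1.21 to 7.94) and 2.26 (0.831 to 5.32) and the opposite direction to stromal-like cells. Stromal markers were higher in the same cells, at 201 against 49.6 CPM in E105 and 119 against 28.2 CPM in E85, and their part in the CCND1 difference was not tested. The E-type cyclins together were 2.76 times higher in E105 (1.503 to 4.86) and 4.56 times in E85 (2.63 to 7.72), where 14.4% and 15.0% of features were at least 1.5-fold higher. CCNE2 had ratios of 5.02 (1.75 to 13.7) and 13.1 (4.92 to 36.9), on 8 and 12 UMIs in the cells with mitosis UMIs. CCNE1 had ratios of 2.03 (0.894 to 4.20) and 2.67 (1.22 to 5.35), on 10 and 11 such UMIs. The intervals of the E-type cyclins overlap in each library, and neither gene alone met the minimum set for the features. CDK4 was 1.68 times higher in E105 (1.20 to 2.31) and 1.57 times in E85 (1.09 to 2.21), and CDK6 had ratios of 0.633 (0.281 to 1.25) and 0.691 (0.290 to 1.41).

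**Figure D5:**
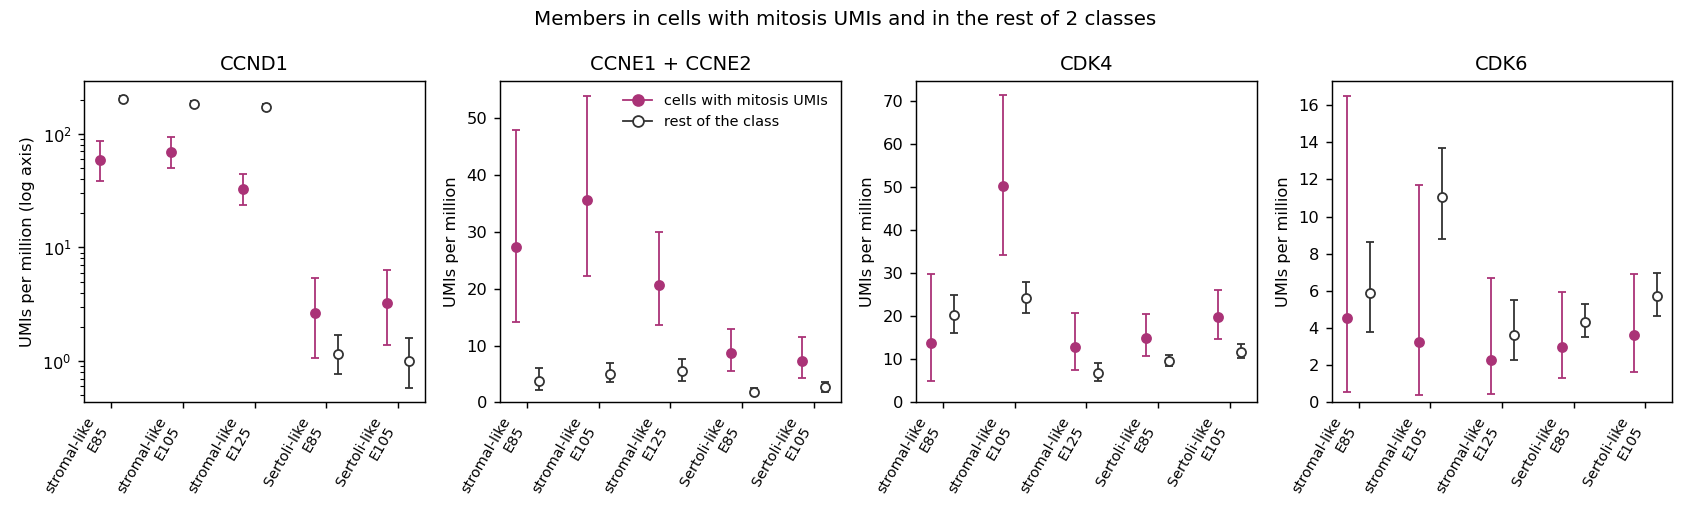
Level of CCND1 (log axis), of CCNE1 and CCNE2 together, of CDK4 and of CDK6 (linear axes) in cells with mitosis UMIs (filled) and the rest of the class (open), in stromal-like and Sertoli-like cells, with exact 95% Poisson intervals. CCND1 is lower and the E-type cyclins are higher in stromal-like cells with mitosis UMIs in all 3 libraries, and Sertoli-like cells stay under 4 CPM of CCND1 in either part.

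In oocyte-like cells the same genes divided 63 from 50 cells, with 38 cells near the limit, and the ratio of the E-type cyclins was 1.04 (0.668 to 1.63). Germ-like cells could not be divided this way, because fewer than 50 were left in 1 of the parts.

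Of 52 other genes of the pathway listed for description, 48 were found by symbol. The inhibitor CDKN1A (p21) was the highest of these in germ-like cells of E105 over E85, with 60.5 CPM against 18.3 CPM (3.32, 2.47 to 4.47), followed by SLBP, which binds histone messages in S phase, at 145 against 50.3 CPM (2.89, 2.41 to 3.46), and RRM2, a subunit of ribonucleotide reductase, at 12.3 against 6.54 CPM (1.88, 1.04 to 3.37). CDKN2A, which inhibits CDK4 and CDK6, was lower at 18.8 against 36.5 CPM (0.513, 0.346 to 0.744). In all, 6 of 34 measured genes were higher and 1 lower, where 15.2% of all features were higher and 2.77% lower, and their median log2 ratio was 0.22 beside 0.17 over all features. SLBP was higher in stromal-like (2.24, 1.76 to 2.87), Sertoli-like (2.02, 1.78 to 2.29), endothelial-like (2.02, 1.17 to 3.56) and lymphoid-like cells (1.53, 1.03 to 2.33) too, so its difference was not particular to germ-like cells.

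In Sertoli-like cells 3 of 38 measured pathway genes were higher in E105 than in E85 and 0 lower, against 11.2% and 3.44% of all features, with a median of 0.17 on the log2 scale beside 0.07 over all features. They were E2F2 (4.10 against 1.44 CPM, 2.84, 1.92 to 4.29), SLBP and RBL1, the pocket protein p107 (19.4 against 12.7 CPM, 1.53, 1.32 to 1.77). In stromal-like cells 2 of 34 were higher, SLBP and FBXW7, which marks cyclin E for degradation (1.96, 1.29 to 3.06), and RRM2 was the 1 lower (0.485, 0.368 to 0.639), against 11.6% of all features higher and 3.09% lower, with a median of 0.01 beside 0.05. In endothelial-like cells 2 of 18 were higher, SLBP and FBXW7 (1.67, 0.951 to 3.00), and 0 lower, against 9.77% and 2.85% of all features, with a median of -0.16 beside 0.08.

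Across the split by mitosis genes, CCNA2, the A-type cyclin that follows CCNE1 and CCNE2 in the cycle, had the widest gap of the measured pathway genes in both classes. In stromal-like cells with mitosis UMIs it was 81.7 times higher in E105 (43.1 to 171), 114 times in E85 (41.8 to 437) and 47.0 times in E125 (23.7 to 106), and in Sertoli-like cells 101 times in E105 (41.2 to 319) and 91.6 times in E85 (44.4 to 219). The inhibitor CDKN1C was lower in stromal-like cells with mitosis UMIs, at 0.590 times the rest in E105 (0.445 to 0.768), 0.559 times in E85 (0.390 to 0.779) and 0.440 times in E125 (0.381 to 0.506). This was not particular to stromal-like cells, since in Sertoli-like cells of E85 CDKN1C was at 0.547 times the rest (0.430 to 0.687). In stromal-like cells the third gene named was MYC. MYC, a transcription factor upstream of D-type cyclins, was there at 0.261 times the rest in E105 (0.0950 to 0.575) and 0.546 times in E85 (0.196 to 1.23), on 6 UMIs each, and at 1.12 times in E125 (0.891 to 1.38).

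By pattern over the 29 sums, the features most like CCND1 were PHACTR2 (r = 0.81), PLEKHO1 (r = 0.81) and FAM135A (r = 0.80), among 5316 features with at least 50 CPM in 1 sum, on the scale log2(CPM + 10). This is a description only, since the sums of a library share its depth and free RNA. The other members did not reach 50 CPM in any sum, so no like genes are named for them.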

How the data were processed

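Droplet single-cell libraries of goat fetal testis, 1 per stage, were analysed from the deposited UMI count matrices, which hold whole-number counts per feature and barcode, not normalized. The counts were made with Cell Ranger 3.1 per the submitters' processing notes, while the file headers name version 6.0.0. Genome build and annotation: not given in the sources used here. Median depth was 3320.5, 2608 and 3043.5 UMIs per deposited barcode in E85, E105 and E125, which limits what can be said of genes under about 10 CPM.

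A barcode was kept if its UMIs reached 1000, its genes 500, and the 13 mitochondrial genes took no more than 20%. Called doublets were removed (195 in E85, 160 in E105 and 1 in E125, where the caller did not work). Cells of all libraries were clustered together on 3000 variable genes, without the members and genes of the cell cycle, with 30 components, 15 neighbours and Leiden resolution 1.0, in scanpy 1.11.5 (Python 3.11.15, numpy 2.4.6, scipy 1.17.1, pandas 2.3.3). TMM factors came from edgeR 4.0.16 in R 4.3.3, and figures from matplotlib 3.10.9. Clusters were named "X-like" by listed markers, and otherwise by leading genes.

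UMIs were summed per class and library. Ratios carry exact intervals of the binomial split, levels exact Poisson intervals and shares Clopper-Pearson intervals. No test was made, since cells are not replicates. The scripts were tested on simulated data. Of the pathway list, up to 3 genes with the highest and 3 with the lowest ratio past the fold were named per comparison, and the 3 features most like a member that reached 50 CPM. The members and lists were chosen with earlier results of these data known.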

Additional observations from a re-analysis of the deposited data

How the results depend on the processing

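The settings tried were TMM scaling, other filters on counts and cells, other clusterings, a gate on marker UMIs, a fold of 2, a mean over cells, no doublets removed and, chosen after seeing the data, removal of the top 6% of doublet scores and of the mitosis-led cluster. Under them 328 values stayed close to those reported, 40 moved and no called value reversed. Most of those that moved were values marked as headline results, of which 35 moved and 189 stayed close, against 5 and 139 of the others. By summed UMIs, depth limits E2F1, CCND3 and CCNE2 most. No paired analysis was possible because every stage has 1 library, so no stages share 2 replicate numbers, and leaving out a replicate was likewise not possible.

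Of members past 1.5-fold in E105 over E85, germ-like cells had 1 as reported, 0 with TMM, 2 at a minimum of 20 UMIs, 3 with no filter, 0 at a fold of 2 and 0 as a mean over cells. Sertoli-like cells had 1 as reported, 3 with no filter, 0 at a fold of 2, 2 with each library clustered alone and 2 as a mean over cells. Stromal-like and endothelial-like cells each had 1 as reported, 2 at 20 UMIs, 3 with no filter and 0 at a fold of 2. Against all other cells, germ-like cells of E85 had 5 as reported and 3 at a fold of 2. Sertoli-like cells had 6 in each library, 2 in E105 and 3 in E85 with TMM, and 2 in E105 at a fold of 2. Oocyte-like cells had 2 of 6 as reported and 4 at 20 UMIs, with no filter and as a mean over cells.

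The CCND1 share of B lineage-like D cyclin UMIs in E85 was 50% as reported, 87.4% at Leiden resolution 2 and with all variable genes, 74.3% with the marker gate and 88.2% without the top doublet scores. In Sertoli-like cells of E105 it was 96.4%, and 100% with the gate and without the top scores. The CDK4 share was 47.0% in germ-like cells of E85 as a mean over cells, and 66.9% in E105 and 50% in E85 in stromal-like cells with at least 3000 UMIs. Shares of cells with a CCND1 UMI at 2000 UMIs were 27.2% and 23.8% in germ-like cells of E105 and E85, and 0.100% and 0.284% in Sertoli-like cells, against 59.1%, 55.3%, 0.745% and 0.768% at the class's own depth. The causes were not tested.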
